A study of Homo sapiens with 12 samples.

Results

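The response of HuH-7 cells to 28 µM SLMP53-2 was compared with the solvent control DMSO over 8 of the 12 arrays of the series, the 4 treated arrays and the 4 DMSO arrays, for every gene probe that passed a filter on dim signals. HuH-7 is an established human hepatocellular carcinoma line whose p53 carries the Y220C substitution in treated and control cells alike, and SLMP53-2 is a small molecule studied as a reactivator of that mutant. The dose of 28 µM corresponds to 2 times the IC50, and RNA was taken after 24 h of treatment. Each group held 4 biological replicates. The other 4 arrays, from cells given 42 µM, entered the joint normalization, the filter, the choice of a probe for each gene and the shared estimate of the spread. The arrays analysed here hold a single cell line and no p53-null partner, so that an effect of the compound through p53 and one that bypasses p53 cannot be told apart here.

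Levels are normalized log2 intensities of 1-colour Agilent arrays, so that differences between groups are log2 differences. The brightest tested probe stood for each gene, and 24175 genes were tested. As a check of the label, the 8 hepatocyte markers of the cell type list (ALB, AFP, APOA1, APOB, TTR, SERPINA1, FGB and HNF4A) were all measured above the filter, and their median difference at 28 µM was −0.01, or −0.07 without treated replicate 4, with 0 of 8 genes called. Passing the filter did not set these markers apart, because all 7 leukocyte, all 6 fibroblast and 4 of 5 endothelial markers passed it too. Averaged over the list, the level of the hepatocyte markers was 11.912 to 12.323 on the DMSO arrays. It was 7.646 to 7.957 for the leukocyte, 7.185 to 7.291 for the fibroblast and 6.366 to 6.555 for the endothelial markers.

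Several transcript groups turn on known switches. In the integrated stress response, kinases that sense amino acid shortage, unfolded protein, haem lack or viral RNA phosphorylate the initiation factor eIF2α, which slows translation in general but favours that of ATF4, a factor that raises genes of amino acid supply, tRNA charging and, with DDIT3 (CHOP), cell death. Sterol genes are driven by SREBP2 and fatty acid genes largely by SREBP1, both held in the endoplasmic reticulum by INSIG proteins when sterols are plentiful. Replication-dependent histone genes are transcribed during DNA synthesis and give short messages that end in a stem-loop in place of a poly(A) tail, whereas the mitotic genes are transcribed later, in G2 and M phase, and are repressed through the DREAM complex when p53 is active.

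With all 4 treated arrays, limma called 0 genes in either direction at an adjusted p below 0.05 and an absolute log2 difference of at least 0.6, and the share called was 0 of 24175. The smallest adjusted p was 0.117. At an unadjusted p below 0.05 with the same size limit, 354 genes lay higher and 297 lower, which are 1.46% and 1.23% of the genes tested. The 4 treated arrays lay above all 4 DMSO arrays for 136 of these genes (0.563%) and below them for 148 (0.612%).

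The absence of calls rested on a single treated array. The root mean square difference from the DMSO mean over the probes tested was 0.472, 0.419 and 0.321 on 28 µM replicates 1, 2 and 3 and 0.297 on replicate 4, against 0.26 to 0.335 on the DMSO arrays. Replicate 4 thus lay within the range of the single DMSO arrays by this measure, and so did treated replicate 3. Each DMSO array was set against the mean of the other 3 and each treated array against the mean of all 4, so that the comparison is approximate. Without replicate 4, 349 genes passed both limits as higher and 237 as lower by their brightest probe, which are 1.44% and 0.980% of those tested, or 384 (1.59%) and 265 (1.10%) when any probe of a gene counted. Because replicate 4 was set aside for its expression, these calls are a description of the other 3 treated arrays against the 4 DMSO arrays and no independent evidence, and their p-values are too small for the full set of 4. In what follows a gene is said to have risen or fallen when it passed both limits without replicate 4. Where a pair of differences or medians is given for a gene or list, the first is with all 4 treated arrays and the second without replicate 4, and the adjusted p belongs to the second. Values per array are given in the order of the replicates, so that the last treated value is that of replicate 4.

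The calls among the 3 arrays depended on individual arrays as well. Leaving out 28 µM replicate 2 next reduced the counts by any probe to 152 higher and 49 lower, leaving out DMSO replicate 2 to 245 and 123, DMSO replicate 3 to 257 and 140, and DMSO replicate 4 to 224 and 119. With the slide as a block the counts were 278 and 144. The share of gene probes well above background was 85.02%, 72.2%, 65.0% and 83.4% on 28 µM replicates 1 to 4, and the part of this difference in the calls was not tested. Of the 90 genes chosen by the naming rule that rose or fell, 70 were also called with the slide as a block, 43 without 28 µM replicate 2 and 61 without DMSO replicate 4, and 40 were called in each of the 23 alternative settings tried. These 40 comprised 34 that rose and 6 that fell, the latter BIRC5, TXNIP, HP, CXCL1, PGAM1 and CENPE. Not called with the slide as a block were CYP51A1, INHBE, PMAIP1, OPTN, MAP1LC3B and JUND among the genes that rose, and H2AC4, H3C15, AURKA, MKI67, TK1, CCNE1, CDKN2C, MYCN, LDHA, TPI1, C4BPA, DKK1, HSPA1A and PSMD1 among those that fell. The fewest settings called HSPA1A (7 of 23), MKI67 and JUND (8 each), H4C15 (9), CYP51A1, MAP1LC3B and PSMD1 (10 each), H3C15 and AURKA (11 each), and ATF4, LDHA and C4BPA (12 each). Below, the count of a list with a second array left out is one without that array and replicate 4.

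**Figure D1:**
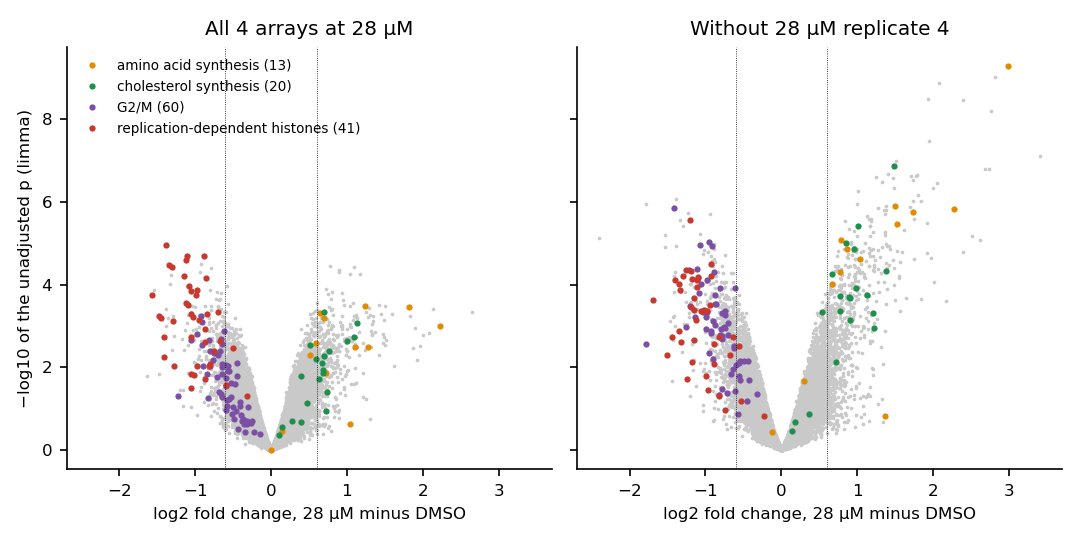
Log2 difference of 28 µM minus DMSO (x axis) against −log10 of the unadjusted limma p (y axis), 1 point per gene tested, with all 4 treated arrays on one panel and without 28 µM replicate 4 on the other. Coloured points are the measured members of the amino acid synthesis, cholesterol synthesis, G2/M and replication-dependent histone lists, whether called or not. An adjusted p below 0.05 with an absolute log2 difference of at least 0.6 was reached by 0 genes with all 4 arrays. Without replicate 4 it was reached by 349 higher and 237 lower genes.

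Replicate 4 did not lie near DMSO for every gene. Of the 349 genes that rose, it lay above the range of the 4 DMSO arrays for 118 (33.8%), within it for 173 and below it for 58. Of the 237 genes that fell, it lay below that range for 86 (36.3%), within it for 109 and above it for 42. Over all genes tested it lay above the range for 22.1% and below it for 20.3%. The same 4 DMSO arrays had served to select the risen and fallen genes, so that these shares are no fair reference for theirs. The median difference of the risen genes was 0.95 on the other 3 arrays and 0.08 on replicate 4, and that of the fallen genes −0.87 and −0.08. Set against DMSO replicate 3, which shared its slide but also entered that selection, replicate 4 gave medians of 0.08 and −0.09. Most of the response was therefore small on that array, while some gene groups followed the other treated arrays closely, the histone genes above all.

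The replication-dependent histone genes lay lower as a group on each treated array, replicate 4 included. All 41 measured genes had a negative difference, with a median of −1.049 over the 4 arrays and −1.12 without replicate 4, against −0.02 and −0.04 over all genes tested. Replicate 4 lay below the whole DMSO range for 36 of the 41, within it for 4 and above it for 1, H2AC6. The median of the list was −0.17, 0.27, −0.16 and 0.07 on DMSO replicates 1 to 4 and −0.86, −1.36, −0.97 and −0.83 on the treated replicates, so that the groups did not overlap. Set against the DMSO array of the same slide, the median was −0.74 for treated replicate 3, −0.93 for replicate 1 and −0.64 for replicate 4.

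With all 4 arrays, 29 of the 41 histone genes had treated values wholly below DMSO at an unadjusted p below 0.05, and the histone list supplied 29 of the 148 genes of that kind on the array. None reached an adjusted p below 0.05 with all 4 arrays, and 38 of the 41 passed the unadjusted limits. Without replicate 4, 22 of the 41 fell, a count that dropped to 2 without 28 µM replicate 2 as well, to 13 without DMSO replicate 4, to 14 without DMSO replicate 2 and to 12 with the slide as a block. Every class of core histone and the linker took part. The median difference over the 4 arrays was −0.87 for 4 H1 linker genes, −1.02 for 7 H2A genes, −1.03 for 11 H2B genes, −1.01 for 8 H3 genes and −1.29 for 11 H4 genes. Of these, 3 H1, 6 H2A, 7 H2B, 5 H3 and 1 H4 gene fell without replicate 4, although 10 of the 11 H4 genes passed the unadjusted limits with all arrays. Of the members with a probe position, 40 lay on chromosome 6 and 1 on chromosome 1. Histone genes of a class are near-identical copies, so that a probe may measure several of them and the identity of a single member is uncertain.

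H2AC4, an H2A gene whose probe lies at chr6:26033461-26033520 of hg19, read 11.14, 11.33, 11.75 and 11.58 on the DMSO arrays and 10.05, 9.74, 10.51 and 10.28 on the treated arrays. All 4 treated values lay below the lowest DMSO value, and the difference was −1.31 ± 0.22 (SE) with all arrays and −1.35 ± 0.24 without replicate 4 (adjusted p = 0.0123, not called with the slide as a block). H2AC16 read 9.57, 9.57, 9.07 and 9.56 on DMSO and 8.16, 7.05, 8.06 and 8.23 on treatment, with replicate 2 the lowest by far, and differed by −1.57 ± 0.31, or −1.69 without replicate 4 (adjusted p = 0.0196). H4C4, the H4 gene of the list that fell, read 10.11, 10.49, 9.92 and 10.31 on DMSO and 8.96, 8.70, 9.20 and 8.44 on treatment, and here replicate 4 was the lowest array of all. H3C10 read 9.58, 10.54, 9.76 and 10.21 on DMSO and 8.78, 8.30, 8.79 and 8.84 on treatment, a difference of −1.34 ± 0.22 and of −1.40 without replicate 4 (adjusted p = 0.0108).

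Further histone genes stood among the largest separated decreases on the 4 arrays. H3C15, whose probe lies on chromosome 1 at chr1:149824317-149824376 (hg19), differed by −1.54 with all arrays and −1.43 without replicate 4 (adjusted p = 0.0338), and H4C15, also on chromosome 1, by −1.38 and −1.40 (adjusted p = 0.0449). Both fell, though H3C15 was not called with the slide as a block. H4C11 differed by −1.48, H4C9 by −1.45, H2AC15 by −1.39 and H3C13 by −1.35, and these did not pass the adjusted limit without replicate 4 (adjusted p = 0.0738, 0.0639, 0.0681 and 0.079). In RNA of whole cultures, fewer cells of a kind, here cells in S phase, and less of a transcript per cell cannot be told apart. How far the labelling reads messages without a poly(A) tail was not tested, and neither was a change at their ends.

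Genes of amino acid supply and of the integrated stress response rose on treated replicates 1 to 3. Of 8 transcription factors and cofactors of that response, 6 rose, with a list median of 1.28 over all 4 arrays, 1.54 without replicate 4 and 0.02 on replicate 4 alone. Of 13 genes of amino acid synthesis and one-carbon metabolism, 10 rose (medians 0.72, 1.03 and 0.03). Of 12 amino acid transporters, 6 rose (medians 0.80, 0.96 and 0.16), and of 6 secreted stress hormones, 4 (medians 0.65, 0.86 and 0.03). No member of these lists fell, but SLC6A14, an amino acid transporter outside them that is described below, did (−1.17 and −1.54). The transcription factors came to 3 without 28 µM replicate 1 or DMSO replicate 3 as well, and the transporters to 3 without 28 µM replicate 2.

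TRIB3, a pseudokinase that DDIT3 induces and that restrains ATF4 and AKT, read 13.21, 13.34, 13.20 and 13.27 on the DMSO arrays and 15.48, 15.34, 15.08 and 13.20 on the treated arrays. The first 3 treated values lay well above DMSO and the replicate 4 value just under the lowest DMSO value. The difference was 1.52 ± 0.40 with all arrays and 2.04 ± 0.21 without replicate 4 (adjusted p = 0.000523). DDIT3 itself, the CHOP factor tied to stress-induced cell death, read 8.23, 7.85, 7.90 and 7.87 on DMSO and 10.01, 9.86, 9.94 and 8.06 on treatment, a difference of 1.504 and of 1.97 without replicate 4 (adjusted p = 0.00568). ATF3, a further bZIP factor of the response, differed by 1.43 and 1.84 (adjusted p = 0.0194) and lay slightly above the DMSO range on replicate 4. NUPR1, a small chromatin protein of cell stress, differed by 1.87 and 2.52 (adjusted p = 0.003). ATF4, which is controlled mainly at translation, differed by 0.56 and 0.62 (adjusted p = 0.0239), close to the size limit.

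Among the synthesis genes, ASNS, which makes asparagine, read 12.34, 12.42, 12.10 and 11.81 on DMSO and 15.25, 15.12, 15.09 and 12.12 on treatment (probe at chr7:97481461-97481520, hg19). Replicate 4 lay within the DMSO range and the other 3 lay close together above it, with differences of 2.23 with all arrays and 2.99 ± 0.17 without replicate 4 (adjusted p = 1.5e-05). MTHFD2, the mitochondrial folate dehydrogenase, read 10.57, 10.67, 10.27 and 10.29 on DMSO and 12.43, 12.12, 12.01 and 10.37 on treatment and differed by 1.28 and 1.74 (adjusted p = 0.0014). ALDH1L2, which oxidizes formyl-tetrahydrofolate in mitochondria, was well above background on 0 of 4 DMSO arrays and on 4 of 4 treated arrays, so that its fold is a bound. Against the lowest signal called well above background on each DMSO array, it was at least 3.49-fold higher over all 4 treated arrays. It is counted among the 10 that rose, but it passed the filter on dim signals only through arrays of treated cells, so that its call is a description. PHGDH and PSAT1, the opening steps of serine synthesis, differed by 1.52 and 1.03 without replicate 4 and by 0.38 and −0.22 on it.

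PCK2, the mitochondrial phosphoenolpyruvate carboxykinase, read 10.45, 10.74, 10.23 and 10.26 on DMSO and 13.39, 13.30, 13.02 and 10.28 on treatment. It differed by 2.08 with all arrays and 2.82 ± 0.17 without replicate 4 (adjusted p = 1.5e-05), and replicate 4 lay within the DMSO range. It is listed with gluconeogenesis and the urea cycle, where ASS1, which uses aspartate to make argininosuccinate, also rose (1.25 and 1.53, adjusted p = 0.00475) and ARG1, the arginase that closes the cycle, fell (−0.94 and −1.25, adjusted p = 0.0415, and not called without 28 µM replicate 1, 2 or 3 or DMSO replicate 2, 3 or 4), with 11 members measured and medians of 0.11 and 0.08.

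**Figure D2:**
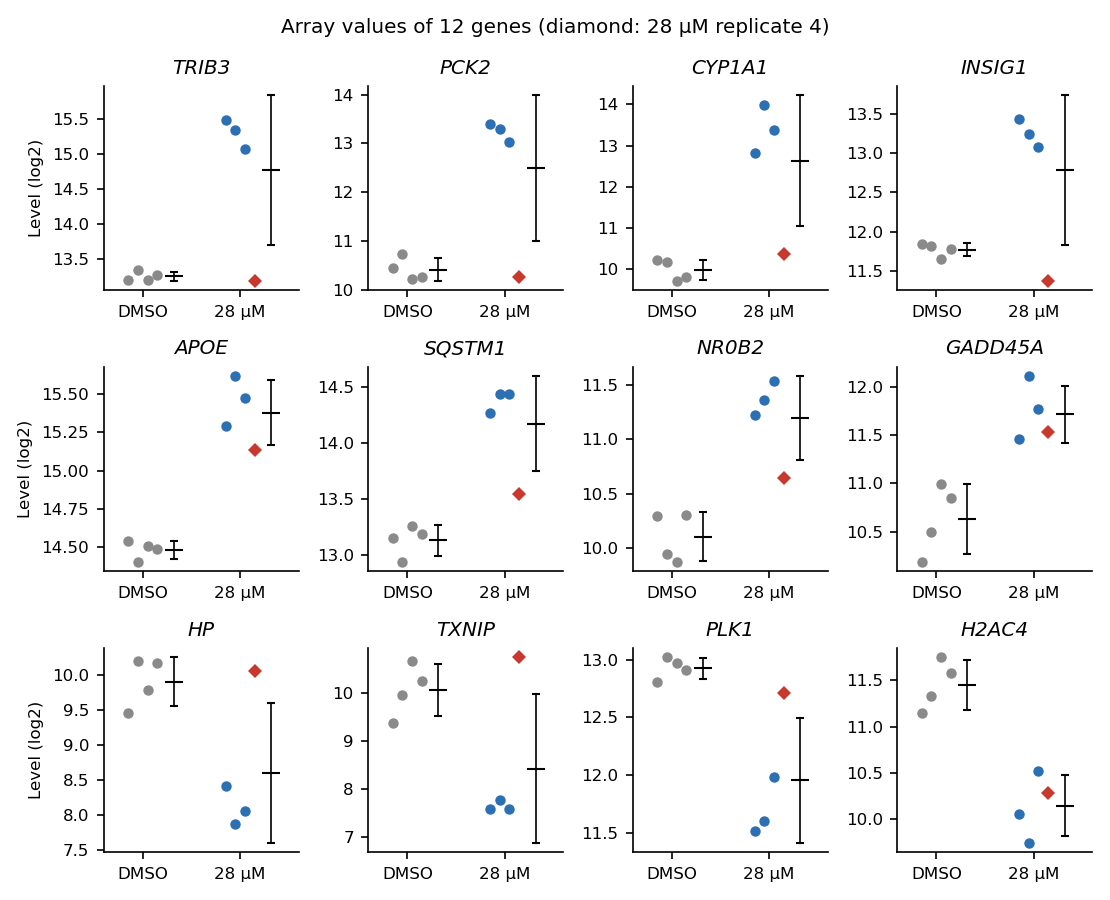
Normalized log2 intensity (y axis) of 12 genes on the 4 DMSO and the 4 treated arrays (x axis), 1 point per array with 28 µM replicate 4 as a diamond, and the group mean ± SD as bars. On replicate 4 PCK2 lies within the DMSO range, TRIB3 just under it and INSIG1 below it, whereas H2AC4, SQSTM1, APOE and GADD45A lie outside the DMSO range on all 4 treated arrays.

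For transport, SLC7A11, the cystine and glutamate exchanger, read 6.53, 7.16, 6.95 and 7.17 on DMSO and 9.32, 9.24, 8.80 and 6.92 on treatment, with differences of 1.62 and 2.17 (adjusted p = 0.0208). Its partner chain SLC3A2 differed by 1.42 and 1.79 (adjusted p = 0.000468) and the neutral amino acid carrier SLC1A4 by 1.045 and 1.35 (adjusted p = 0.00135). CHAC1, which degrades glutathione and is a target of ATF4, read 8.64, 9.55, 9.14 and 8.83 on DMSO and 11.86, 11.49, 11.81 and 9.001 on treatment and differed by 2.00 and 2.68 (adjusted p = 0.000425). CHAC1 was the 1 gene that rose of 21 glutathione and NRF2 genes (2 without 28 µM replicate 1), whose median was 0.22 with all arrays, 0.17 without replicate 4 and 0.24 on replicate 4.

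Secreted stress signals rose as well. STC2, a stanniocalcin induced by ER stress, read 8.52, 8.75, 9.03 and 8.73 on DMSO and 11.60, 11.19, 11.76 and 9.02 on treatment, with differences of 2.13 and 2.76 (adjusted p = 3.54e-05). GDF15, the stress cytokine, differed by 1.5 and 1.93 (adjusted p = 2.3e-05) and INHBE, the liver activin E chain, by 0.73 and 0.99 (adjusted p = 0.0175). Of 9 genes in a list of brakes on mTORC1, the growth kinase, and their partners, 3 rose and the list medians were 0.10 and 0.03. These were the brakes DDIT4 (1.97 and 2.62, adjusted p = 0.00357) and SESN2 (1.33 and 1.74, adjusted p = 0.000509), and EIF4EBP1 (0.96 and 1.18, adjusted p = 0.00176). EIF4EBP1, the repressor of cap-dependent translation, lies downstream of mTORC1 and is no brake on it.

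Cytosolic aminoacyl-tRNA synthetases, which charge tRNAs for translation, and their mitochondrial counterparts were set side by side. Of 20 cytosolic enzymes 5 rose (CARS1, EPRS1, IARS1, SARS1 and TARS1) and 0 fell, with a median of 0.36 with all arrays, 0.54 without replicate 4 and 0.22 on replicate 4. Of 16 mitochondrial enzymes none was called in either direction by limma, 0 passed the unadjusted limits with all arrays, and the medians were 0.01 and 0.02. The difference between the lists was not tested. CARS1, for cysteine, read 7.10, 7.34, 7.29 and 7.64 on DMSO and 8.60, 8.68, 8.25 and 7.595 on treatment (0.94 and 1.17, adjusted p = 0.003). SARS1, for serine, read 10.67, 10.37, 10.79 and 10.54 on DMSO and 11.39, 11.40, 11.71 and 11.06 on treatment and lay above the DMSO range on replicate 4 too (0.80 and 0.91, adjusted p = 0.0161), while TARS1, for threonine, lay below that range there (0.63 and 0.89, adjusted p = 0.0218). The count of 5 became 1 without 28 µM replicate 2 as well, 2 without DMSO replicate 4, and 3 without DMSO replicate 2, DMSO replicate 3 or 28 µM replicate 3, and 2 under 75th percentile scaling of the processed signal or of the Edwards-corrected values.

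A few genes of these lists stood apart on all 4 treated arrays without passing the adjusted limit, and were picked out after their values were seen. YARS1, the tyrosine enzyme, read 8.61, 8.47, 9.27 and 8.74 on DMSO and 9.33, 10.52, 10.42 and 10.07 on treatment, and its difference was 1.30 on replicate 4 and 1.32 on the other 3 (adjusted p = 0.0885). CEBPG, a bZIP partner of ATF4, read 11.05, 10.49, 10.42 and 10.39 on DMSO and 11.30, 12.26, 11.47 and 11.82 on treatment, with 1.24 on replicate 4 and 1.09 on the others (adjusted p = 0.0634). SLC7A1, the cationic amino acid carrier, read 6.59, 6.59, 6.36 and 7.004 and 7.30, 8.51, 7.61 and 7.97 (adjusted p = 0.254), and AARS1, the alanine enzyme, 9.81, 9.70, 10.60 and 10.30 and 10.83, 11.44, 11.57 and 10.84 (adjusted p = 0.0707). In each the treated group lay wholly above the DMSO group, and the spread among the treated arrays was wide.

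The composite letters TGATGNAA, as in the C/EBP-ATF elements that ATF4 dimers bind, were searched on both strands of RefSeq promoters (250 bases before to 50 after the start, GRCh38.p14). They stood in 18 of 52 promoters of the amino acid response lists (34.6%), against 436 of 13489 promoters of all genes tested (3.23%), 20 of 244 of the risen genes (8.20%) and 0 of 22 of the sterol lists. The cytosolic tRNA synthetases held them in 7 of 16 promoters and the mitochondrial ones in 1 of 13. Windows of 60 bases around the match are shown for ASNS and ATF3, which rose, for IARS1, a synthetase that rose, and for CEBPG, which also stood apart on replicate 4, written 5′ to 3′ on the strand of the gene with the match or its reverse complement in capitals. The windows lie at chr7:97872443-97872502 (minus strand), chr1:212565190-212565249 (plus), chr9:92293698-92293757 (minus) and chr19:33374045-33374104 (plus), and a match is a description of the letters only.
ASNS: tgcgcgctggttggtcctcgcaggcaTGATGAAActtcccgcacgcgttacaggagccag
ATF3: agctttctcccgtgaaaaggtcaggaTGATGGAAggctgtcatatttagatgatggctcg
IARS1: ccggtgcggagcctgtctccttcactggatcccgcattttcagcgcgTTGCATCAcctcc
CEBPG: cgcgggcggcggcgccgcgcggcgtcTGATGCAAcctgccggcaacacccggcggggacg

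Sterol genes rose on treated replicates 1 to 3, and their median on replicate 4 lay near 0. Of 20 genes of cholesterol synthesis 15 rose, 0 fell and all 20 had a positive difference, with medians of 0.68 with all arrays, 0.90 without replicate 4 and 0.01 on replicate 4, where 6 members lay below the DMSO range and 3 above it. The per-array medians were −0.02, 0.08, −0.01 and −0.02 on DMSO and 0.89, 1.01, 0.69 and 0.01 on treatment. The count of 15 became 4 without 28 µM replicate 2 as well, 8 without DMSO replicate 4, 9 without 28 µM replicate 1, 10 without DMSO replicate 2 or 3, 7 in a fit with a term for the slide, and 4 and 9 under 75th percentile scaling of the processed signal and of the Edwards-corrected values. LSS, the lanosterol synthase, read 11.46, 11.23, 11.25 and 11.26 on DMSO and 12.69, 12.93, 12.74 and 11.39 on treatment, with differences of 1.14 and 1.49 (adjusted p = 0.000411). HMGCS1, the HMG-CoA synthase, differed by 1.09 and 1.38 (adjusted p = 0.00847). CYP51A1, the lanosterol demethylase, read 11.19, 11.96, 11.22 and 11.47 on DMSO and 12.90, 12.98, 12.17 and 10.66 on treatment and lay below the DMSO range on replicate 4 (0.72 and 1.23, adjusted p = 0.0481).

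Of 9 genes of SREBP control and LDL uptake 4 rose and 0 fell (medians 0.49 and 0.71), among them SREBF1 (0.49 and 0.71), SREBF2 and INSIG1. The count of 4 became 2 without 28 µM replicate 2 as well, where SREBF2 was not called. It was also 2 under 75th percentile scaling of the processed signal or of the Edwards-corrected values. INSIG1, the sterol-regulated anchor of SREBP, read 11.84, 11.81, 11.65 and 11.78 on DMSO and 13.44, 13.25, 13.08 and 11.37 on treatment. Replicate 4 was the lowest of the 8 arrays, and the difference was 1.01 with all arrays and 1.49 ± 0.16 without replicate 4 (adjusted p = 0.000629). SREBF2, the gene of SREBP2, differed by 0.70 and 0.88 (adjusted p = 0.00962).

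Of 19 fatty acid synthesis genes 9 rose and 0 fell (medians 0.56 and 0.68), with 5 without 28 µM replicate 2 and 4 under 75th percentile scaling of the processed signal. ACSS2, which makes cytosolic acetyl-CoA from acetate, read 9.03, 8.82, 8.91 and 8.77 on DMSO and 10.47, 11.27, 10.67 and 9.002 on treatment, with differences of 1.47 and 1.92 (adjusted p = 0.00197). SCD, the stearoyl-CoA desaturase, differed by 1.23 and 1.71 (adjusted p = 0.000468) and lay below the DMSO range on replicate 4. LPIN1, a phosphatidate phosphatase, differed by 1.16 and 1.47 (adjusted p = 0.00576). Genes of fatty acid oxidation and ketogenesis gave 0 calls of 13 and medians of 0.09 and −0.01, and 1 of them passed the unadjusted limits with all arrays, and 1 was called without DMSO replicate 2. Outside the lists, FABP3, a fatty acid binding protein, read 6.45, 6.57, 6.60 and 6.39 on DMSO and 8.32, 8.79, 8.23 and 6.61 on treatment and rose by 1.48 and 1.94 (adjusted p = 0.000141).

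The mitotic genes fell on treated replicates 1 to 3. Of 60 G2/M genes 32 fell and 0 rose, and all 60 had a negative difference over the 4 arrays, with medians of −0.58 with all arrays and −0.81 without replicate 4. On replicate 4 the median was 0.10, with 25 members above the DMSO range and 9 below it. Replicate 4 therefore differed from the other 3 in the mitotic genes while sharing the lower histone signal with them. The count of 32 became 4 without 28 µM replicate 2 as well, 13 without DMSO replicate 2, 3 or 4, 18 without 28 µM replicate 3, 21 without 28 µM replicate 1, 10 when slides were blocked, and 19 and 14 with the processed signal scaled to the 75th percentile or quantile-normalized. CENPE, the kinesin of kinetochores, read 11.30, 11.42, 11.51 and 11.24 on DMSO and 10.03, 9.75, 10.09 and 11.38 on treatment, with differences of −1.06 and −1.41 (adjusted p = 0.00129). PLK1, the mitotic polo kinase, read 12.80, 13.02, 12.97 and 12.91 on DMSO and 11.52, 11.61, 11.99 and 12.71 on treatment, and its replicate 4 value lay just under the DMSO range (−0.97 and −1.22, adjusted p = 0.00811). MKI67, the proliferation antigen, read 7.604, 8.04, 8.82 and 8.58 on DMSO and 6.62, 7.14, 7.24 and 8.74 on treatment (−0.82 and −1.26, adjusted p = 0.0458), and was not called with the slide as a block or in the authors' normalized values.

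AURKA, the spindle pole kinase, differed by −0.58 with all arrays and −0.90 without replicate 4 (adjusted p = 0.0382, not called with the slide as a block), and BIRC5, the survivin of the chromosomal passenger complex, by −0.82 and −1.07 (adjusted p = 0.00425). INCENP, the scaffold of the same complex and a gene outside the list, read 9.43, 10.04, 9.29 and 9.91 on DMSO and 8.97, 7.95, 7.84 and 8.74 on treatment. It lay below DMSO on all 4 treated arrays and differed by −1.29 ± 0.29, or −1.41 without replicate 4 (adjusted p = 0.0326). Of 44 S phase genes 3 fell and 0 rose, with medians of −0.45, −0.58 and, on replicate 4, 0.04. They were TK1, the thymidine kinase (−0.96 and −1.22, adjusted p = 0.0337), E2F8, a repressor of E2F targets (−0.97 and −1.20, adjusted p = 0.0124), and CCNE1, the cyclin that starts S phase (−0.62 and −0.82, adjusted p = 0.0249). The S phase count was 0 without 28 µM replicate 2 as well, 1 without any of the DMSO arrays or with the slide as a block, 5 without 42 µM replicate 2, 7 with the Edwards-corrected values at the 75th percentile and 9 when only the DMSO and 28 µM arrays were fitted. Of 11 CDK inhibitors and D cyclins 3 fell, CDKN1C (−1.01 and −1.21, adjusted p = 0.0296), CDKN2C (−0.77 and −0.94, adjusted p = 0.0267) and CDKN3, a phosphatase that acts on CDKs (−0.70 and −0.81, adjusted p = 0.0203). The list medians were −0.14 and −0.23, and the count was 0 without 28 µM replicate 2, 1 without 28 µM replicate 1 or 3 or any DMSO array, and 2 with the slide as a block.

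The letters TTTGAA of the cell cycle homology region, through which the DREAM and MuvB complexes bind mitotic promoters, stood in 34 of 51 G2/M promoters (66.7%) on either strand, against 2002 of 13489 promoters of all genes tested (14.8%), 15 of 37 histone promoters (40.5%) and 60 of 185 promoters of the fallen genes (32.4%). The window of PLK1, a mitotic member with a match close before its start, lies at chr16:23678829-23678888 (plus strand, GRCh38.p14, RefSeq) with the match in capitals.
PLK1: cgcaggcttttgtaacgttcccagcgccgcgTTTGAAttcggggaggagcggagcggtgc

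The largest increase on the array was that of CYP1A1, the main target of the aryl hydrocarbon receptor. It read 10.22, 10.17, 9.71 and 9.82 on DMSO and 12.83, 13.98, 13.37 and 10.36 on treatment, with all 4 treated values above DMSO but replicate 4 by a small margin. The difference was 2.65 ± 0.58 with all arrays and 3.41 ± 0.30 without replicate 4 (adjusted p = 0.000282). Of 20 measured genes of drug metabolism, 3 rose and 0 fell, with medians of 0.14 and 0.12. The other two are further targets of that receptor, CYP1B1 (0.99 and 1.32, adjusted p = 0.00888) and TIPARP, a mono-ADP-ribosyltransferase that restrains it (0.75 and 0.97, adjusted p = 0.00937). Without 28 µM replicate 2, CYP1A1 alone of the 3 was called.

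Liver secretory genes gave few calls. Of 23 hepatic plasma proteins 1 rose (medians 0.06 and 0.13), APOE, an apolipoprotein of circulating lipid particles, which read 14.54, 14.40, 14.51 and 14.49 on DMSO and 15.29, 15.62, 15.47 and 15.13 on treatment. APOE stood above DMSO on all 4 treated arrays (0.89 ± 0.15, and 0.98 without replicate 4, adjusted p = 0.00755) and was not called without 28 µM replicate 2. Of 15 genes of the acute phase list 3 fell (medians −0.04 and −0.03). HP, the haemoglobin scavenger haptoglobin, read 9.46, 10.19, 9.79 and 10.17 on DMSO and 8.42, 7.87, 8.06 and 10.06 on treatment (−1.30 and −1.79, adjusted p = 0.00117), with replicate 4 at DMSO level. SAA4, the constitutive serum amyloid A protein, fell with differences of −0.62 and −0.82 (adjusted p = 0.0183) and C4BPA, a complement regulator, with −0.66 and −0.88 (adjusted p = 0.0378). The count of 3 became 1 without 28 µM replicate 2 or 3 or DMSO replicate 2 or 4. Of 13 liver transcription factors 1 rose (medians 0.06 and 0.04), NR0B2, the repressor SHP that acts below the bile acid receptor. NR0B2 read 10.29, 9.95, 9.87 and 10.31 on DMSO and 11.22, 11.36, 11.54 and 10.65 on treatment (1.09 and 1.27, adjusted p = 0.00129).

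TXNIP, the glucose-regulated inhibitor of thioredoxin and of glucose uptake, had the largest decrease of all genes tested with a symbol when replicate 4 was left out. It read 9.38, 9.96, 10.66 and 10.25 on DMSO and 7.598, 7.78, 7.59 and 10.74 on treatment, with replicate 4 above the DMSO range and the other 3 below it, and differed by −1.63 with all arrays and −2.40 ± 0.33 without replicate 4 (adjusted p = 0.00339). Of 19 glycolysis genes 3 fell and 1, ENO2, rose (0.55 and 0.71), with medians of −0.13 and −0.31. LDHA, the lactate dehydrogenase, differed by −0.71 and −1.01 (adjusted p = 0.0473), PGAM1 by −0.64 and −0.88 (adjusted p = 0.0045) and TPI1 by −0.48 and −0.74 (adjusted p = 0.0183). The 3 decreases came to 1 without 28 µM replicate 1 or 2 or DMSO replicate 3 or 4 as well, and ENO2 was not called without 28 µM replicate 2 or 3, DMSO replicate 2, 3 or 4, or with the slide as a block. Of 11 hypoxia-type genes (medians −0.14 and −0.19) VEGFA, the angiogenic factor, rose (0.68 and 0.96, adjusted p = 0.00709) and ANKRD37, well above background on 3 of 4 treated arrays, fell (−0.77 and −0.98, adjusted p = 0.0204) but was not called without 28 µM replicate 1, 2 or 3 or DMSO replicate 2 or 4.

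A few genes of autophagy and the lysosome rose, and SQSTM1 and CTSL among them stood above DMSO on replicate 4 too. Of 26 genes of autophagy and lysosome 4 rose (medians 0.21 and 0.27). SQSTM1, the p62 receptor, read 13.15, 12.93, 13.25 and 13.19 on DMSO and 14.27, 14.43, 14.44 and 13.55 on treatment, above DMSO on all 4 arrays (1.04 and 1.25, adjusted p = 0.000468). OPTN, the receptor optineurin, differed by 0.79 and 1.02 (adjusted p = 0.0137) and MAP1LC3B, the LC3 protein of the autophagosome, by 0.70 and 0.92 (adjusted p = 0.0401), both with replicate 4 within the DMSO range. CTSL, the protease cathepsin L, named after its values were seen, read 11.60, 11.60, 11.74 and 11.41 on DMSO and 12.24, 12.62, 12.40 and 12.16 on treatment and was apart on all 4 arrays (0.77 and 0.84, adjusted p = 0.00709). The count of 4 became 2 in the slide block and without 28 µM replicate 2.

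Of 8 EGFR ligands and ERBB receptors 2 rose (medians 0.19 and 0.23), both ligands. AREG, amphiregulin, read 8.60, 9.04, 8.41 and 8.70 on DMSO and 11.07, 11.42, 10.76 and 9.09 on treatment (1.89 and 2.39, adjusted p = 0.00478). BTC, betacellulin, was well above background on 2 of 4 DMSO arrays and differed by 1.04 and 1.37 (adjusted p = 0.00293). Of 15 immediate-early genes, JUN (0.56 and 0.67) and JUND (0.44 and 0.71, adjusted p = 0.0479) rose and EGR1 (−0.70 and −0.88, adjusted p = 0.0392) and IER3 (−0.63 and −0.79, adjusted p = 0.0165) fell, with medians of −0.10 and −0.17. The 2 higher calls were lost with the slide as a block and without 28 µM replicate 1 or 2 or any DMSO array. The 2 lower calls became 0 without 28 µM replicate 2 and 1 without 28 µM replicate 1 or 3 or DMSO replicate 1, 2 or 4.

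Secreted signals fell in a few cases. Of 11 chemokines and NF-kB targets 2 fell (medians −0.14 and −0.21), the neutrophil attractant CXCL1, which read 12.29, 11.84, 11.82 and 11.93 on DMSO and 10.85, 9.94, 10.53 and 11.99 on treatment (−1.14 and −1.53, adjusted p = 0.00432), and CXCL10, well above background on 2 of 4 treated arrays (−0.67 and −0.91, adjusted p = 0.00888). DKK1, the secreted Wnt antagonist, was the 1 gene of 11 in its list that fell (list medians −0.13 and −0.17), reading 10.99, 11.56, 11.46 and 11.70 on DMSO and 9.92, 9.89, 10.07 and 11.45 on treatment (−1.09 and −1.47, adjusted p = 0.0379), and it was not called with the slide as a block or without 28 µM replicate 1, 2 or 3 or DMSO replicate 2, 3 or 4. SLC6A14, an amino acid transporter outside the lists and well above background on 3 of 4 treated arrays, fell with differences of −1.17 and −1.54 (adjusted p = 0.003). Of 12 genes of the MYC and MAX network (medians −0.03 and −0.01), MYC rose (1.04 and 1.27, adjusted p = 0.00803) and MYCN fell (−0.80 and −0.95, adjusted p = 0.0185), both with replicate 4 outside the DMSO range on the same side. Of 28 published miR-34a targets (medians −0.09 and −0.11) MYC and VEGFA rose and MYCN and LDHA fell. MYCN was not called with the slide as a block or without 28 µM replicate 2 or 3 or DMSO replicate 1 or 2, and neither MYCN nor LDHA without 28 µM replicate 2 or 3 or DMSO replicate 2.

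The median of the p53 target list lay near 0. Of 32 targets 3 rose and 0 fell, with medians of 0.06 with all arrays and 0.07 without replicate 4. The count became 1 without 28 µM replicate 2 or DMSO replicate 2 or 4, and 1 target was called lower without 28 µM replicate 1. GADD45A, a cell cycle and DNA repair gene also induced by ATF4, read 10.19, 10.50, 10.99 and 10.85 on DMSO and 11.46, 12.11, 11.76 and 11.53 on treatment and stood above DMSO on all 4 arrays (1.08 and 1.14, adjusted p = 0.0286). TP53INP1, a promoter of apoptosis and autophagy, differed by 0.90 and 1.149 (adjusted p = 0.0179), and GDF15, described above, was the other. CDKN1A, the p21 inhibitor, differed by 0.26 ± 0.11 with all arrays and 0.31 without replicate 4 (adjusted p = 0.211). It read 7.57, 7.48, 7.44 and 7.56 on DMSO and 7.69, 7.83, 7.94 and 7.62 on treatment. All 4 treated values thus lay above DMSO, by a difference under the size limit. MDM2, the p53 ubiquitin ligase, differed by 0.11 ± 0.11 and 0.13 (adjusted p = 0.639). BAX, the pore-forming effector of apoptosis, differed by −0.37 ± 0.30 and −0.35 (adjusted p = 0.645), and TNFRSF10B, the death receptor DR5, by 0.37 and 0.50 (adjusted p = 0.0461), under the size limit.

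Of 8 BH3-only genes, which start mitochondrial apoptosis, 2 rose (medians −0.11 and −0.11), BMF (1.28 and 1.56, adjusted p = 0.00622) and PMAIP1 (0.83 and 1.02, adjusted p = 0.0167), a count of 1 with the slide as a block or without 28 µM replicate 1 or 2 or DMSO replicate 3 or 4. Among 8 further BCL2 family genes (medians 0.01 and 0.01) the pro-survival BCL2L2 rose (0.80 and 1.01, adjusted p = 0.0138), though not without 28 µM replicate 2. Of 12 death receptors and caspases limma called 0, with 0 past the unadjusted limits and medians of 0.12 and 0.09.

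The chaperone arm of the unfolded protein response gave 1 call in 25 genes (medians 0.13 and 0.12), HERPUD1, a part of ER-associated degradation, which rose (0.72 and 1.003, adjusted p = 0.00451). XBP1, the factor spliced by IRE1, differed by 0.24 ± 0.13 (adjusted p = 0.366 without replicate 4), a difference whose sign turned under 75th percentile scaling, at −0.086 for the processed signal and −0.002 for the Edwards-corrected values. Of 15 cytosolic heat shock genes 1, HSPA1A, which has a near-identical copy that its probe may also read, fell (−0.61 and −0.70, adjusted p = 0.049, not called with the slide as a block or without any other treated array), with list medians of −0.16 and −0.17. Of 31 proteasome subunits PSMD1 fell (−0.48 and −0.66, adjusted p = 0.0411, not called with the slide as a block, without 28 µM replicate 2 or 3 or without any DMSO array), with medians of −0.17 and −0.27.

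Further genes were among the largest increases and belong to no list. RCN1, a calcium-binding protein of the secretory pathway, read 7.91, 7.70, 7.68 and 7.61 on DMSO and 9.58, 9.84, 9.52 and 7.92 on treatment (1.49 and 1.92, adjusted p = 0.00494). UAP1L1, related to the enzyme that makes UDP-N-acetylglucosamine, read 8.49, 8.17, 8.19 and 7.98 on DMSO and 10.47, 10.56, 10.79 and 8.34 on treatment (1.83 and 2.40, adjusted p = 2.3e-05).

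Other lists gave 0 calls with limma, with all 4 arrays and without replicate 4. Their medians, with all 4 treated arrays and without replicate 4, were 0.03 and 0.07 for 53 cytosolic ribosomal proteins, −0.07 and −0.08 for 29 genes of the respiratory chain and ATP synthase, 0.27 and 0.14 for 9 of IGF and insulin signalling, 0.16 and 0.18 for 10 of bile acid synthesis and transport and 0.02 and 0.06 for 9 metallothioneins, and none of their members passed the unadjusted limits. For markers of other cell types the medians were −0.06 and −0.05 for 6 fibroblast genes, −0.12 and −0.14 for 4 endothelial genes and −0.20 and −0.22 for 7 leukocyte genes, again with 0 past either limit.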

How the data were processed

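Total RNA of 12 HuH-7 cultures, 4 for each of DMSO, 28 µM and 42 µM SLMP53-2, was labelled with Cy3 and hybridized to 4x44K human arrays. The authors quantified the scanned arrays with Agilent Feature Extraction, version 10.7.3.1 in the file headers and the submitters' processing notes (their methods name another version), and the deposited scanner files hold unnormalized intensity values of each spot and its background. The authors also deposited log2 values made with limma by Edwards background correction and quantile normalization, which served as an alternative. The same correction and normalization were applied to the mean intensities with limma 3.58.1 (R 4.3.3), control and outlier-marked spots were left out, and spots of a probe were averaged. On each array the values correlated with the deposited ones at 0.999 or more.

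A probe was tested where 2 or more arrays of a group of 4 read it well above background. Of 41000 gene probes, 28078 (68.5%) were named by accession through RefSeq (GRCh38.p14), and the rest kept the array's name, updated where a synonym was unique. Probe positions are those of the array files (hg19). All 3 groups shared one spread per probe in lmFit and eBayes, and p-values were adjusted after Benjamini and Hochberg over all probes tested. A gene was called at an adjusted p below 0.05 and an absolute log2 difference of at least 0.6. Precision is set by how many arrays there are, and standard errors come from the shared spread.

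Each effect is given with all 4 treated arrays and without 28 µM replicate 4. The members and the 46 gene lists (805 genes, 783 tested, 15 below the filter and 7 without a probe of that name) were chosen with earlier results of these data known. Genes named in the text were 21 genes that the study names or measures, the 8 largest separated increases and decreases over all arrays, the 8 largest of each kind without replicate 4, and up to 3 called members of each list, of which 1 gene is not reported here. Outside this rule, AARS1, CEBPG, CTSL, ENO2, EPRS1, H2AC6, IARS1, JUN, PHGDH, PSAT1, SLC7A1, SREBF1 and YARS1 were chosen after their values were seen. Arrays lay on 5 slides, and treated replicates 3, 1 and 4 shared a slide with DMSO replicates 1, 4 and 3. Alternatives were other signals, normalizations, filters, blocks and arrays left out, and those combined with leaving out replicate 4 were chosen after seeing the data. Tables and figures were made with Python 3.11.15, pandas 2.3.3, numpy 2.4.6 and matplotlib 3.10.9.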

Additional observations from a re-analysis of the deposited data

Results flagged for a closer look

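Of 290 groups of 4 values examined (the named genes and list medians in DMSO and in 28 µM), 34 held a highest or lowest array whose gap to its nearest neighbour, as a share of the whole range of the group, exceeded Dixon's critical value for 4 samples. Chance marks about 1 group in 20, but most of these genes were named because they were called without replicate 4, so that this rate is no reference for the marks on that array. In 13 of the gene groups the array was 28 µM replicate 4 as the lowest of the treated arrays, with a gap share of 0.926 for DDIT3, 0.855 for SESN2, 0.949 for ASNS, 0.912 for SLC3A2, 0.939 for VEGFA, 0.873 for GDF15, 0.832 for RCN1, 0.881 for PCK2, 0.872 for CHAC1, 0.873 for UAP1L1, 0.953 for SLC1A4, 0.843 for LSS and 0.832 for SREBF2, all of them genes that rose on the other 3 arrays. In 5 it was the highest treated array, at 0.939 for TXNIP, 0.884 for DKK1, 0.836 for PGAM1, 0.985 for ANKRD37 and 0.912 for SAA4, all of which fell on the other 3.

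Histone genes were marked through a different array, 28 µM replicate 2, which was the lowest at 0.849 for H2AC16 and 0.876 for H3C10. MDM2 had its highest treated value on replicate 3 (0.837). Among the DMSO arrays, replicate 1 was the highest for DDIT3 (0.864), LSS (0.903) and IER3 (0.886), replicate 2 for VEGFA (0.922) and replicate 4 for CXCL10 (0.849), while replicate 3 was the lowest for H2AC16 (0.974) and replicate 4 for TNFRSF10B (0.834). Among list medians on the treated arrays, replicate 4 was the highest for G2/M (0.851) and the proteasome (0.892), replicate 1 the highest for the p53 targets (0.84) and the lowest for the fibroblast markers (0.837). On the DMSO arrays, replicate 2 was the highest for cholesterol synthesis (0.866) and replicate 1 the lowest for the hypoxia-type genes (0.836).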

How the results depend on the processing

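With all 4 treated arrays, limma called 0 genes in every setting but 2: the replicate block gave 1 higher gene, MST1P2, and 1 lower, H2AC4, at a smallest adjusted p of 0.0372, and leaving out each array gave 0 to 384 higher and 0 to 265 lower, the upper ends without 28 µM replicate 4. Same-numbered DMSO and treated arrays correlated at −0.048, 0.223, 0.245 and −0.016 in their deviations, so the numbers were not taken as pairs. Counts at an unadjusted p below 0.05, 400 and 324 by any probe, were 1148 and 690 with the processed signal at the 75th percentile, 1056 and 998 with it quantile-normalized, 85 and 59 at a log2 limit of 1, and 303 to 736 and 187 to 583 with an array left out. The lowest of these lower counts came without 28 µM replicate 2 and the highest without replicate 4. Without replicate 4, where 384 and 265 genes were called by any probe, the log2 limit of 1 gave 162 and 78, the slide block 278 and 144, the processed signal at the 75th percentile 313 and 160, and a second array left out 152 to 413 and 49 to 279.

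Of the list medians, those of the cytosolic tRNA synthetases became 0.184 with the strict filter, of the secreted stress hormones 1.144 and 1.225 with the processed signal (75th percentile and quantile), of the ER chaperones 0.026 and 0.055 at the 75th percentile (processed and Edwards-corrected values) and 0.088 with array weights, of heat shock −0.26 and −0.294, of ribosomal proteins −0.23 and −0.209 and of the respiratory chain −0.243 and −0.244 under the same 2 scalings. The death receptors were at 0.036 (Edwards values, 75th percentile), bile acid genes at 0.328 and 0.265 (processed), gluconeogenesis at 0.186 (processed, quantile), 0.151 (strict filter) and 0.061 (weights), fatty acid oxidation at 0.021 (slide block), the MYC network at 0.108 (weights), and fibroblast and endothelial markers at −0.163 and −0.251 (processed, quantile). With an array left out, the tRNA synthetases ranged from 0.298 to 0.539, fatty acid oxidation from −0.01 to 0.091, the MYC network from −0.059 to 0.071, miR-34a targets from −0.115 to 0.008, gluconeogenesis from 0.028 to 0.119, IGF signalling from 0.088 to 0.355, the respiratory chain from −0.08 to 0.016 and hepatocyte markers from −0.067 to 0.14. XBP1 turned to −0.086 and −0.002 at the 75th percentile (processed and Edwards). The cause was not tested. Of the 99 named genes, 90 were called without replicate 4. The number of arrays limits what can be called, and signals near background limit BTC, ANKRD37, CXCL10 and SLC6A14.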
